A study of Mus musculus with 6 samples.

Results

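The 10 genes described here encode enzymes of mitochondrial fatty acid beta oxidation. They were chosen by name, not by a rule on measured values, from the 53465 genes of the count table: *Cpt1a*, *Cpt2*, *Acadvl*, *Acadl*, *Acadm*, *Acads*, *Hadha*, *Hadhb*, *Hadh* and *Acaa2*. Earlier results of these data were known when they were chosen. RNA was sequenced from M II oocytes of naturally aged Kunming (KM) female mice, 9 to 10 months old, in 3 control pools and 3 pools matured with 10 μM quercetin, a plant flavonoid. Each pool combined 15 oocytes from 3 mice, so a value is an average over a few animals and not that of 1 oocyte or 1 mouse. In both groups the mice had been primed with gonadotropin, the surrounding cumulus cells had been removed by pipetting, and the oocytes had been cultured in M16 medium for 16 h. Quercetin was added from a DMSO stock, and whether the control medium held DMSO is not given in the sources used here. In pools of this kind, a lower level in every oocyte and a smaller share of oocytes that carry the transcript cannot be told apart.

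Beta oxidation shortens fatty acids inside mitochondria and supplies acetyl-CoA, NADH and reduced electron transfer flavoprotein to respiration. A fatty acid is first joined to coenzyme A. It is then passed to carnitine by CPT1 on the outer mitochondrial membrane and back to coenzyme A by CPT2 on the inner membrane. Each round then runs through dehydrogenation by an acyl-CoA dehydrogenase suited to the chain length, hydration, a further dehydrogenation and thiolytic cleavage. For long chains the reactions after the first dehydrogenation are carried out by the mitochondrial trifunctional protein, made of HADHA and HADHB, and for shorter chains by separate enzymes that include HADH and ACAA2. Mammalian oocytes store lipid and are known to use fatty acid oxidation during maturation.

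The labelled cell type was checked first. Of 12 oocyte marker genes, 11 had at least 10 counts in every pool, and their summed level was 24290 to 27400 CPM (counts scaled to 1000000 per pool) in control pools and 25440 to 29510 CPM in quercetin pools. The 12 cumulus and granulosa markers summed to 63.2 to 78.3 CPM in control and 80.0 to 86.6 CPM in quercetin pools, with 2 of the 12 at 10 or more counts in every pool and *Ptx3*, *Amh* and *Foxl2* at 0 in all. Most of this sum was *Cyp19a1*, with 486 to 612 counts in control and 598 to 692 in quercetin pools, and the other 11 markers summed to 5.03 to 12.9 CPM in control and 7.16 to 10.9 CPM in quercetin pools, which overlap. The 5 blood and immune markers summed to 3.14 to 3.83 CPM in control and 3.50 to 3.75 CPM in quercetin pools, with *Hbb-bs* and *Hba-a1* at 0. The 13 mitochondrially encoded protein genes took 2.23 to 2.77% of the counts in control and 1.86 to 2.09% in quercetin pools. The part of other cells and of mitochondrial RNA in the results was not tested. The pools held 7880467 to 9938743 counts, and 3 counts, used here as the detection floor, were worth 0.328 to 0.375 CPM, which covers counting error only. Along the first principal component of all tested genes (32.4% of the variance), quercetin pools 1 and 2 stood apart at -37.9 and -30.9, whereas quercetin pool 3 lay at 30.9 and the control pools between -3.34 and 31.3. Results that rest on these pools are therefore also given without them.

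The 10 enzymes were unevenly represented along the pathway. To compare genes with each other, CPM were divided by the length in kilobases of all annotated exons of the gene, which gives counts per kb. *Acadm*, the medium-chain acyl-CoA dehydrogenase, was highest at a mean of 69.6 counts per kb (range over the 6 pools 59.9 to 88.2). This level was above that of 93.3% of the 11842 genes with enough counts to test. *Acadl*, the long-chain acyl-CoA dehydrogenase, followed at 12.8 counts per kb (9.80 to 14.5), above 75.1% of tested genes. *Cpt2* was at 3.96 counts per kb (3.21 to 4.86), above 53.7% of tested genes. With this length, the remaining enzymes lay in the lower part of the distribution or near the detection floor. The shares of tested genes were computed with this length only.

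*Hadh*, *Hadha* and *Hadhb* lay close together, at 1.60 (1.15 to 2.14), 1.31 (0.544 to 2.20) and 0.902 (0.672 to 1.65) counts per kb. Their ranges overlapped, and the order of these genes changed when the mean transcript or the longest coding transcript was used as the length. The place of *Hadhb* is uncertain for a further reason, since pseudogene copies of it carry counts of their own, and with them it would have 209 to 352 counts in place of 37 to 93. The last group was *Acaa2* at 0.211 (0 to 0.505), *Acadvl* at 0.144 (0 to 0.393), *Acads* at 0.0331 (0 to 0.0986) and *Cpt1a* at 0.00784 (0 to 0.0470) counts per kb. Within this group no neighbours differed beyond their spread. Ranges of neighbours did not overlap at 4 steps of the order, from *Acadm* to *Acadl*, *Acadl* to *Cpt2*, *Cpt2* to *Hadh*, and *Hadhb* to *Acaa2*. The step from *Cpt2* to the gene below it was not separated under either of the other lengths. *Acadm* and *Acadl* kept the first and second place, and *Acaa2*, *Acadvl*, *Acads* and *Cpt1a* the last 4 places, with every length. With the length of all annotated exons, *Acadm* alone gave 71.6 to 79.5% of the summed counts per kb of the 10 genes. Together the 10 genes took 0.0306 to 0.0373% of all counts of a pool.

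**Figure D1:**
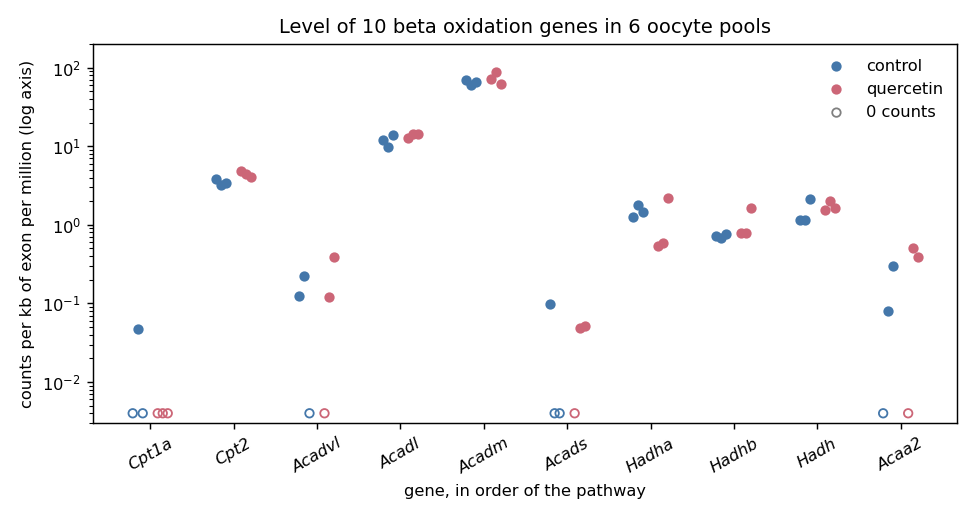
Level of each of the 10 enzymes in each pool, in counts per kb (CPM per kb of exon) on a log axis, in the order of the pathway, with control pools in blue, quercetin pools in red and pools without a count as open circles at the bottom. *Acadm* and *Acadl* stand above the other genes in all 6 pools, and *Cpt1a*, *Acadvl*, *Acads* and *Acaa2* each have at least 2 pools without a count.

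The entry of fatty acids into mitochondria was represented by *Cpt2* but hardly by *Cpt1a*. *Cpt1a* (ENSMUSG00000024900, GRCm38 chr19:3322334-3385733, plus strand) encodes the liver-type carnitine palmitoyltransferase 1, the step at which malonyl-CoA restrains the pathway. Its counts were 0, 3 and 0 in the control pools and 0 in each quercetin pool. It was thus at or under the floor of 3 counts in all 6 pools and no fold change was computed. The other CPT1 genes, named here after their values were seen, were no higher: *Cpt1b* had no count in any pool, and *Cpt1c* had 3 counts in control pool 3 and none elsewhere. Overlap of *Cpt1b* and *Cpt1c* with other genes was not examined, and how reads that match several genes were counted is not given.

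*Cpt2* (ENSMUSG00000028607, chr4:107903981-107923610, minus strand) encodes the enzyme that returns the acyl group to coenzyme A. Its counts were 83, 64 and 72 in control and 93, 97 and 82 in quercetin pools, equal to 8.34 ± 0.84 CPM and 10.6 ± 1.0 CPM (mean ± SD, n = 3). The groups did not overlap, with 9.29 CPM in the highest control pool and 9.62 CPM in the lowest quercetin pool. The log2 fold change was 0.35 (SE 0.22), with a 95% interval from a fold of 0.894 to 1.81, and the adjusted p was 0.988 by edgeR's quasi-likelihood test, as for each of the 6 tested enzymes. Groups that did not overlap were seen in 10.6% of all tested genes, and in 2 of the 6 enzymes tested, *Cpt2* and *Hadhb*. The carrier between both transferases, *Slc25a20*, also chosen after its values were seen, had 4, 16 and 3 counts in control and 9, 0 and 10 in quercetin pools.

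The acyl-CoA dehydrogenases open each round, and their levels differed by chain length. Of the summed counts per kb of *Acadvl*, *Acadl*, *Acadm* and *Acads*, *Acadm* took 80.7 to 86.0% and *Acadl* 13.9 to 18.7%, whereas the very-long-chain enzyme *Acadvl* took at most 0.509% and the short-chain enzyme *Acads* at most 0.12%. This pattern was present in all 6 pools. The size of the shares depends on the length used. With all annotated exons the means of *Acadm* and *Acadl* were 69.6 and 12.8 counts per kb. They were 343.0 and 20.1 with the mean transcript, and 133.0 and 13.4 with the longest coding transcript. *Acadm* (ENSMUSG00000062908, chr3:153922357-153944632, minus strand) had 2461, 1956 and 2262 counts in control and 2252, 3156 and 2081 in quercetin pools. At 254.4 ± 20.5 CPM in control and 290.2 ± 51.1 CPM in quercetin pools (n = 3 each), the groups overlapped, and quercetin pool 2 was the highest of all 6. The log2 fold change was 0.19 (SE 0.16, fold interval 0.885 to 1.47, adjusted p = 0.988, edgeR), and -0.059 for quercetin pool 3 alone against the controls.

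*Acadl* (ENSMUSG00000026003, chr1:66830839-66863277, minus strand) had 212, 164 and 251 counts in control and 204, 261 and 247 in quercetin pools. The means were 23.8 ± 4.3 CPM and 27.7 ± 1.9 CPM, the groups overlapped, and the log2 fold change was 0.21 (SE 0.20, fold interval 0.843 to 1.60, adjusted p = 0.988, edgeR). The proportion of *Acadl* to *Acadm* within a pool, per kb of all annotated exons, was 0.168, 0.164 and 0.217 in control and 0.177, 0.161 and 0.232 in quercetin pools. Its log2 difference, quercetin minus control, was 0.05 with p = 0.7 (two-sided exact permutation test, adjusted p = 0.7 over 2 ratios). The sign of this small difference changed when control pool 1, control pool 2 or quercetin pool 3 was left out.

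The dehydrogenases for the longest and the shortest chains were close to the floor. *Acadvl* (ENSMUSG00000018574, chr11:70010183-70015411, minus strand) had 3, 5 and 0 counts in control and 0, 3 and 9 in quercetin pools. These few counts are uncertain as well, since 42.9% of its exon length overlaps exons of *Dvl2* on the opposite strand, whose counts were 27 to 53 per pool, and the counting of strand is not given in the sources used here. *Acads* (ENSMUSG00000029545, chr5:115110299-115119346, minus strand) had 2, 0 and 0 counts in control and 0, 1 and 1 in quercetin pools. Neither gene passed the filter on low counts, and the ratio of *Acadvl* to *Acadm* was not tested because *Acadvl* was at 0 in 2 pools.

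The alpha and beta subunits of the trifunctional protein are encoded by neighbouring genes that start back to back. *Hadha* (ENSMUSG00000025745, chr5:30118304-30155162, minus strand) and *Hadhb* (ENSMUSG00000059447, chr5:30155248-30184593, plus strand) have starts 86 bases apart in the GENCODE annotation. The RefSeq starts lie further apart, at chr5:30154980 for *Hadha* and chr5:30155253 for *Hadhb*. In RefSeq, the promoter windows of 300 bases (250 before and 50 after each start) lie at chr5:30154931-30155230 for *Hadha* and chr5:30155003-30155302 for *Hadhb* on GRCm38.p6, and share 228 bases. Both are shown, each 5′ to 3′ on the strand of its gene, because they overlap. A link between these windows and the counts of the pair was not tested. Capitals mark a GC box, searched as GGGCGG or CCGCCC.
*Hadhb*: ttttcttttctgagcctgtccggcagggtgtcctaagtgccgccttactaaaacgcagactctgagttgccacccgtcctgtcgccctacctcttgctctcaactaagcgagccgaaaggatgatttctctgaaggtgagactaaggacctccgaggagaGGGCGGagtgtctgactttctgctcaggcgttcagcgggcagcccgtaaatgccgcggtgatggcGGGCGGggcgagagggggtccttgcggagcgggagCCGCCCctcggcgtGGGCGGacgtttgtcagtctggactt
*Hadha*: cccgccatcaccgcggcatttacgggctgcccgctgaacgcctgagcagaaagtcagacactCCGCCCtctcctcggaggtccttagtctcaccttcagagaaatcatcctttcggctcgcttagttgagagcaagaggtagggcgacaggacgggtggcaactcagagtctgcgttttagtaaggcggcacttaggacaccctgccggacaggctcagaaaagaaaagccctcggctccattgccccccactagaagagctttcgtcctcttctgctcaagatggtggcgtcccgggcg
The *Hadhb* window held 4 GC boxes and 60.7% G and C, and the *Hadha* window 1 GC box and 58.7% G and C, against a median of 52.7% over all promoters. A GC box was present in 7 of the 9 member promoters found in RefSeq (*Cpt1a*, *Cpt2*, *Acads*, *Acadl*, *Hadha*, *Hadhb* and *Hadh*) and in 35.7% of 32851 mouse promoters. The *Hadha* and *Hadhb* boxes are partly the same bases, since the windows overlap. The hexamer AGGTCA or TGACCT, a motif bound by nuclear receptors, was present in the promoters of *Acadm*, *Acadvl* and *Cpt1a* and in 16.3% of all promoters, and TATAAA or TTTATA in none of the 9 against 13.6% of all. Other motifs searched were CCAAT or ATTGG, present in the promoters of *Hadh* and *Cpt1a* and in 37.4% of all promoters. TCAAGGTCA or TGACCTTGA was present in none of the 9 against 0.423% of all. GCGCATGC or GCATGCGC was present in that of *Acadm* and in 2.71% of all. These matches describe letters in the window only.

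*Hadha* varied most between pools among the 6 tested enzymes. Its counts were 98, 130 and 114 in control and 38, 47 and 164 in quercetin pools, or 13.1 ± 2.3 CPM and 9.71 ± 8.26 CPM (n = 3). Quercetin pools 1 and 2 were below every control pool and quercetin pool 3 above every control pool. The coefficient of variation over the 6 pools was 50.3%, where counting error alone would give 10.1%. With 1 library per pool, variation from library preparation and variation between the oocytes of the pools cannot be told apart. The log2 fold change was -0.43 (SE 0.50, fold interval 0.338 to 1.63, adjusted p = 0.988, edgeR). Without quercetin pool 3 it was -1.40 with an adjusted p of 0.183 (edgeR), and without quercetin pools 1 and 2, which leaves 1 quercetin pool, it was 0.55. The sign of the *Hadha* difference thus changed with the quercetin pools included.

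*Hadhb* had 43, 37 and 45 counts in control and 42, 48 and 93 in quercetin pools, or 4.76 ± 0.31 CPM and 7.14 ± 3.27 CPM (n = 3). Quercetin pool 3 stood apart here as well, and the other 5 pools lay between 37 and 48 counts. The log2 fold change was 0.58 (SE 0.34, fold interval 0.874 to 2.56, adjusted p = 0.988, edgeR), and 0.14 without quercetin pool 3. The groups did not overlap after TMM scaling but overlapped when counts were scaled by library size only. Without quercetin pools 1 and 2 the log2 fold change was 1.19, a value for 1 quercetin pool against the controls.

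The ratio of the subunits within a pool does not depend on how pools are scaled. There were 2.28, 3.51 and 2.53 *Hadha* counts per *Hadhb* count in control and 0.905, 0.979 and 1.76 in quercetin pools, so that the lowest control pool was above the highest quercetin pool. On the log2 scale and per kb, the ratio was 1.04 ± 0.33 in control and -0.19 ± 0.53 in quercetin pools (SD, n = 3). The difference of -1.23 gave p = 0.1 by the two-sided exact permutation test, the lowest value it allows here, and adjusted p = 0.2 over 2 ratios. This test cannot give a smaller p with 3 pools in each group. The difference was -1.05 to -1.53 when any 1 pool was left out and -0.63 with quercetin pool 3 alone.

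The *Hadhb* counts, and with them its level and this ratio, carry a further uncertainty. The processed pseudogene *Gm13910* (chr2:108948806-108950233, plus strand) shares 93.3% of its 31-base words with *Hadhb*. It had 242, 164 and 248 counts in control and 290, 250 and 226 in quercetin pools, more than *Hadhb* in every pool. A second copy, *Gm9108* (chr15:103586944-103588368, minus strand), shares 45.9% of its words and had 8 to 22 counts. How reads that match several places were counted is not given in the sources used here. With the counts of both copies added to *Hadhb*, the ratio was 0.319, 0.622 and 0.379 in control and 0.108, 0.153 and 0.494 in quercetin pools. The groups then overlapped, and the log2 difference was -1.07 (p = 0.3, exact permutation test).

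**Figure D2:**
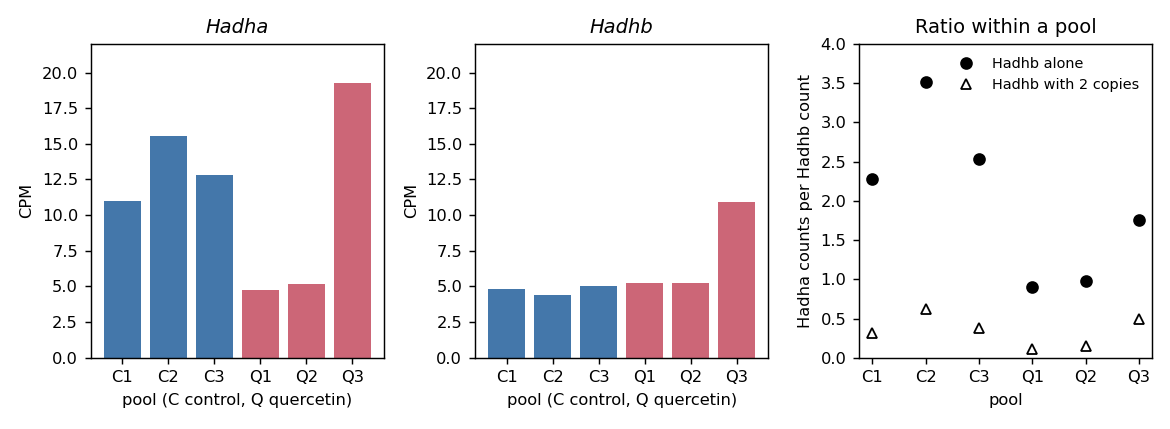
CPM of *Hadha* (left) and *Hadhb* (middle) in each pool as bars from 0, and *Hadha* counts per *Hadhb* count within each pool (right), with *Hadhb* alone as filled circles and with the counts of the pseudogenes *Gm13910* and *Gm9108* added as open triangles. *Hadha* is lowest in quercetin pools 1 and 2 and both genes are highest in quercetin pool 3, and the circles of the groups do not overlap (2.28 to 3.51 against 0.905 to 1.76) while the triangles do.

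*Hadh* and *Acaa2* close the round for shorter chains. *Hadh* (ENSMUSG00000027984, chr3:131233419-131272101, minus strand), the 3-hydroxyacyl-CoA dehydrogenase, had 51, 48 and 95 counts in control and 62, 91 and 69 in quercetin pools. At 7.37 ± 2.85 CPM and 8.60 ± 1.19 CPM (n = 3), control pool 3 was the highest of all pools and the groups overlapped. The log2 fold change was 0.22 (SE 0.31, fold interval 0.718 to 1.89, adjusted p = 0.988, edgeR), and 0.59 without control pool 3. *Acaa2* (ENSMUSG00000036880, chr18:74779197-74806208, plus strand), the 3-ketoacyl-CoA thiolase, had 0, 1 and 4 counts in control and 0, 7 and 5 in quercetin pools. It did not pass the filter on low counts.

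Over the tested members, the comparison of quercetin with control gave no change that passed the criteria, an adjusted p under 0.05 and more than 2-fold. This held for 0 of the 6 tested enzymes and for 0 of all 11842 tested genes (0.0%). At an unadjusted p under 0.05 there were again 0 of 6, against 477 of all tested genes (4.03%), and DESeq2, edgeR's likelihood ratio test and limma-voom also gave 0 of 6. The other 4 enzymes, *Cpt1a*, *Acadvl*, *Acads* and *Acaa2*, had too few counts to pass the filter, and when every gene with at least 1 count was kept none of them had an unadjusted p under 0.05 either. Of the 6, 5 had a positive and 1, *Hadha*, a negative log2 fold change, with a median of 0.22, where 5490 of all tested genes were positive, 6352 negative and the median was -0.03. The intervals differed in width. A 2-fold difference in either direction lay outside the 95% interval for *Cpt2*, *Acadl*, *Acadm* and *Hadh*, but inside it for *Hadha* (down to a fold of 0.338) and for *Hadhb* (up to 2.56).

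**Figure D3:**
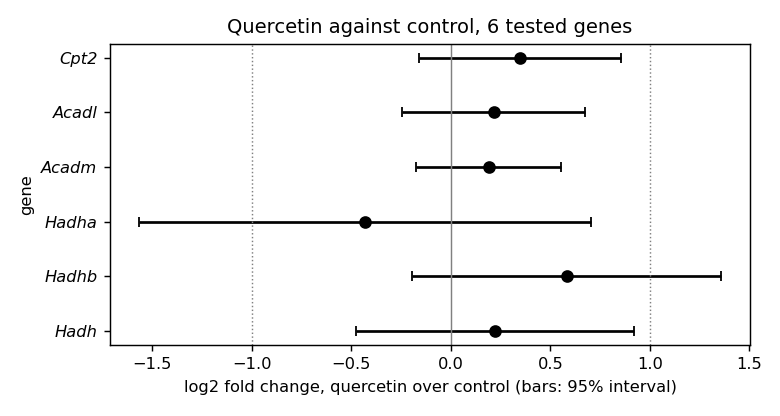
Log2 fold change of quercetin over control for the 6 tested enzymes, with 95% intervals from edgeR's quasi-likelihood fit, where the solid line marks no difference and the dotted lines a 2-fold difference. All 6 intervals cross 0, and only those of *Hadha* and *Hadhb* cross a dotted line.

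The other genes of fatty acid use were taken from 6 lists with 62 genes in all. Of these, 55 had at least 1 count and 37 were tested, 19 with a positive and 18 with a negative log2 fold change (median 0.01). None passed the criteria, and none had an unadjusted p under 0.05 in this fit. The highest gene of each list per kb is given next, with its level and its difference. *Acsl3*, which joins fatty acids to coenzyme A, was at 120.2 counts per kb among 5 activation genes (4 tested), with a log2 fold change of 0.13 (SE 0.19). *Slc22a5*, a carnitine importer, was at 2.33 counts per kb among 6 other carnitine genes (2 tested), with a log2 fold change of 0.27 (SE 0.26).

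*Acat1*, the mitochondrial acetoacetyl-CoA thiolase, was at 98.4 counts per kb among 12 other mitochondrial enzymes (8 tested), above *Acadm*, with a log2 fold change of 0.15 (SE 0.13). *Echs1*, the enoyl-CoA hydratase that acts after the first dehydrogenation, was at 12.7 counts per kb, and *Decr1*, which handles double bonds, had no count in any pool. Both were named after their values were seen. *Etfa*, a subunit of electron transfer flavoprotein, which takes electrons from the acyl-CoA dehydrogenases, was the highest gene of the 6 lists and the 10 enzymes at 217.2 counts per kb, with a log2 fold change of 0.08 (SE 0.14). Its partner subunit *Etfb* was at 1.35 counts per kb with 6 to 24 counts, and *Etfdh*, which passes the electrons to ubiquinone, had 2 counts in control pool 2, 2 in quercetin pool 2 and none elsewhere. These partners were also chosen after their values were seen.

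*Hsd17b4*, the peroxisomal bifunctional enzyme, was at 11.7 counts per kb among 13 peroxisomal genes (7 tested), with a log2 fold change of 0.01 (SE 0.19). *Cd36*, a fatty acid transporter, was at 51.9 counts per kb among 23 genes of control and supply (14 tested), with a log2 fold change of 0.24 (SE 0.14). The smallest p of the 37 tested genes was that of *Ppard*, a lipid-sensing nuclear receptor, with 36, 29 and 25 counts in control and 13, 22 and 20 in quercetin pools (log2 fold change -0.69, SE 0.33, adjusted p = 0.988, edgeR). *Ppard* was singled out after its values were seen, as was *Esrra*. *Esrra*, a nuclear receptor that drives genes of oxidation, had 17 counts in quercetin pool 3 and none in the other 5 pools.

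**Figure D4:**
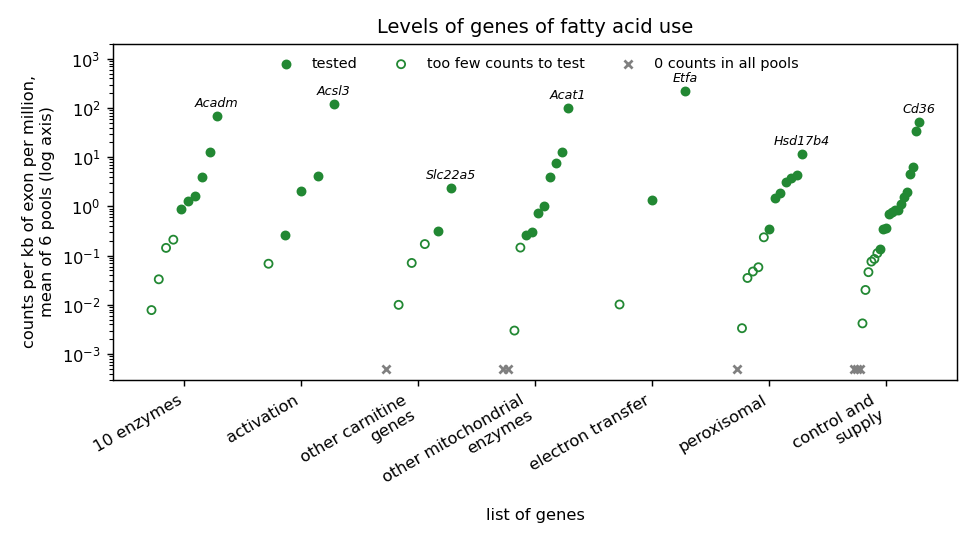
Mean level over the 6 pools, in counts per kb (CPM per kb of exon) on a log axis, of the 10 enzymes and of 6 lists of other genes of fatty acid use, with tested genes as filled circles, genes with too few counts to test as open circles, genes without a count as crosses, and the highest gene of each list named. *Etfa* at 217.2, *Acsl3* at 120.2, *Acat1* at 98.4 and *Acadm* at 69.6 stand highest.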

How the data were processed

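The authors deposited raw counts of reads on Ensembl genes for each pool, unscaled and not pooled. The methods name a smart-seq HT kit for the libraries and Hisat2 with GRCm38 for alignment. The submitters' processing notes list CASAVA 1.8 and TopHat2 2.0.6. The counting program and its settings for strand and for multiply matching reads are not given in the sources used here. The files held no columns beyond the 6 pools.

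Groups and replicate numbers came from the labels. Genes passing filterByExpr (minimum count 10) were scaled by TMM and tested by edgeR 4.0.16 (glmQLFit, glmQLFTest, no covariate, R 4.3.3), with Benjamini-Hochberg adjustment over 11842 genes. CPM use TMM-scaled library sizes. Ratios between members were compared by exact permutation tests (scipy 1.17.1). The code was tested on simulated data. P-values measure the spread between pools, each from 3 mice. Lengths, coordinates and 31-base words came from GENCODE M21 (GRCm38), and promoters of 9 of 10 members from RefSeq (GRCm38.p6). Promoters on chromosome 18, where *Acaa2* lies, were left out of the members and of all promoters.

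The members and lists were chosen with earlier results of these data known. Named genes were all members and, of each wider list, genes with an unadjusted p under 0.05 and the gene highest per kb. Outside this rule, *Cpt1b*, *Cpt1c*, *Slc25a20*, *Echs1*, *Decr1*, *Etfb*, *Etfdh*, *Ppard* and *Esrra* were named after their values were seen, and pseudogenes, overlapping genes and markers where a value rests on them. Alternatives were DESeq2 1.42.0, the likelihood ratio test, limma-voom (limma 3.58.1), other scalings, filters and lengths, leaving out pools and the replicate number as a block. Added after seeing the data were leaving out quercetin pools 1 and 2 together, the longest coding transcript, unadjusted counts over all genes and the addition of pseudogene copies.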

Additional observations from a re-analysis of the deposited data

How the results depend on the processing

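No enzyme passed the criteria under any of the alternatives run. Over all genes, the number past both criteria was 0, but 12 with DESeq2, 16 with edgeR's likelihood ratio test, 3 when every gene with at least 1 count was kept, between 0 and 7 with any single pool removed (7 without quercetin pool 1, 6 without quercetin pool 3) and 2 without quercetin pools 1 and 2. The number of enzymes with an unadjusted p under 0.05 lay between 0 and 1 of 6 with any single pool removed. The 1 was *Hadha* without quercetin pool 3, a setting in which 1563 of all 12258 tested genes had such a p. Leaving out quercetin pools 1 and 2 leaves 1 quercetin pool, which is assumed to vary like the controls. Calls in that setting rest on the spread of the control pools alone, and the log2 fold change of *Hadhb* was 1.19 there. In the wider lists, 1 of 55 (*Esrra*) had an unadjusted p under 0.05 with every gene of at least 1 count, against 780 of all 24476. With at least 10 counts in every pool it was 1 of 29 (*Ppard*), against 444 of all 10146. Without control pool 2, 241 of all 12186 tested genes had an unadjusted p under 0.05. Without quercetin pools 1 and 2 the log2 fold change reversed to -0.059 for *Acadm* and 0.55 for *Hadha*. The *Acadl* to *Acadm* difference was -0.10 to 0.18 with any single pool removed, with -0.004, -0.02 and -0.10 without control pool 1, control pool 2 and quercetin pool 3. The cause of these changes was not tested. Over the 15 alternatives the log2 fold change was 0.21 to 0.43 for *Cpt2*, 0.10 to 0.36 for *Acadl* and 0.07 to 0.59 for *Hadh*. To see whether replicate numbers mark pairs, the mean of its group was subtracted from each gene's log2 CPM. These deviations correlated at 0.296, 0.101 and -0.0303 between same-numbered pools. Between differently numbered pools they correlated at -0.299 to 0.176. The numbers were not taken as pairs, though 0.296, for the pools numbered 1, was the highest value. With the replicate block 0 genes passed the criteria, 492 had an unadjusted p under 0.05, and *Hadha* was at -0.71 and *Hadhb* at 0.51. At this depth 4 enzymes were at or near the floor. They entered the fit only when every gene with at least 1 count was kept, with standard errors of 1.15 to 2.15 on the log2 scale.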
